A study of Mus musculus with 16 samples.

Results

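In sham-operated mice, the efferent ducts, which drain sperm and fluid from the testis, were set against the caput, the head of the epididymis into which they open. The members are the 2 efferent duct arrays and the 2 caput arrays titled sham-castrated, 4 of the 16 one-colour Affymetrix arrays of the series. The mice were adult males of strain 129BL/6 that had recovered for 14 days from the sham operation. They received vehicle, which was 100 µL of 10% ethanol in sesame oil, and tissue was taken 12 hours later. In the other 12 arrays the same tissues came from castrated males given the same vehicle, testosterone propionate (TP) or estradiol (E2), with 2 arrays per tissue and treatment. No transgene or drug enters the sham groups. The labels do not say whether the 2 arrays of a group came from separate or pooled animals. The p-values rest on the spread within all 8 groups of the 16 arrays, not the sham groups alone, and that spread may be technical.

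Tissue and labelling kit coincided. Per the labels' protocols, efferent duct arrays were made from 50 ng of total RNA with NuGEN's Ovation chemistry, whereas caput arrays used 10 µg and Affymetrix's One-Cycle labelling. A difference between the tissues and one between the kits cannot be told apart here, so the text keeps to large differences and to genes with a known site. The 3' over 5' signal ratio of actin, a measure of how far labelled transcripts are shortened, was 3.13 to 3.18 on the log2 scale on the efferent duct arrays and 0.636 to 0.751 on the caput arrays.

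The efferent duct epithelium consists of absorptive cells with a brush border, which take back most of the fluid that leaves the testis, and of cells with motile cilia, which stir the content of the lumen. Estrogen receptor alpha in this epithelium is known to be needed for that resorption. The caput epithelium consists of principal cells, which secrete proteins that bind to maturing sperm, of acid-secreting narrow and clear cells, and of basal cells. Its most proximal stretch, the initial segment, depends on factors that arrive from the testis and signals through the receptor tyrosine kinase Ros1 and the kinase ERK.

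Values are the deposited intensities, on a linear scale, of the brightest single-symbol probe set of each gene. Of 18193 genes, 14197 (78.0%) had a mean above 16 in at least 1 sham group. Background on an array was the highest of 27 Bacillus control probe sets, which lay between 8.09 and 14.3 on the 4 sham arrays. Where both arrays of a tissue were below it, a fold is a lower bound, computed against background and written "at least". Replicates correlated at r = 0.930 for the efferent duct and 0.944 for the caput over all genes, against 0.749 to 0.778 between the tissues. A gene was called when limma, a linear model fitted over all 16 arrays, gave an adjusted p under 0.05 and the tissues differed at least 4-fold. The group size limits the precision: the median 95% interval reached 0.70 to either side of a log2 difference.

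The 2 efferent duct arrays differed in a set of secreted caput genes. Lcn8, a lipocalin of the initial segment, read 15.5 on replicate 1 and 1126 on replicate 2. Rnase10, a secreted protein of the same segment, read 7.52 and 386. Gpx5, the secreted glutathione peroxidase of the caput, read 27.3 and 576. Over 31 genes of 5 secretory lists that were called higher in the caput, replicate 2 exceeded replicate 1 in 25, by more than 4-fold in 12, and replicate 1 exceeded replicate 2 by more than 4-fold in 0. The median of these genes was 1.65% of the caput level on replicate 1 and 7.78% on replicate 2. On the 6 efferent duct arrays of castrated mice it lay between 0.345% and 5.66%, again of the caput sham mean. Those pairs differed within themselves too. Replicates 1 and 2 gave 0.932% and 0.345% with vehicle, 5.66% and 0.386% after TP, and 0.554% and 1.62% after E2. Of 26 genes with a caput mean above 3000 and at least 16-fold higher there, 24 were higher on replicate 2. The excess was more than 4-fold in 12 of them, and in 0 the other way. Their medians were 0.482% and 4.96% of the caput level. Some single genes of this set were alike on both arrays: Lap3 was at 0.495% and 0.543% and C4bp at 3.44% and 3.53%. Spink8 and Ces5a, already at 52.8% and 84.5% of the caput level on replicate 1, were lower on replicate 2. Among all genes above 16 called higher in the caput, 38 were more than 4-fold higher on replicate 2 and 19 on replicate 1. How these genes came to differ between the 2 arrays was not tested. For some of these genes, values without an efferent duct array are therefore given as well.

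**Figure D1:**
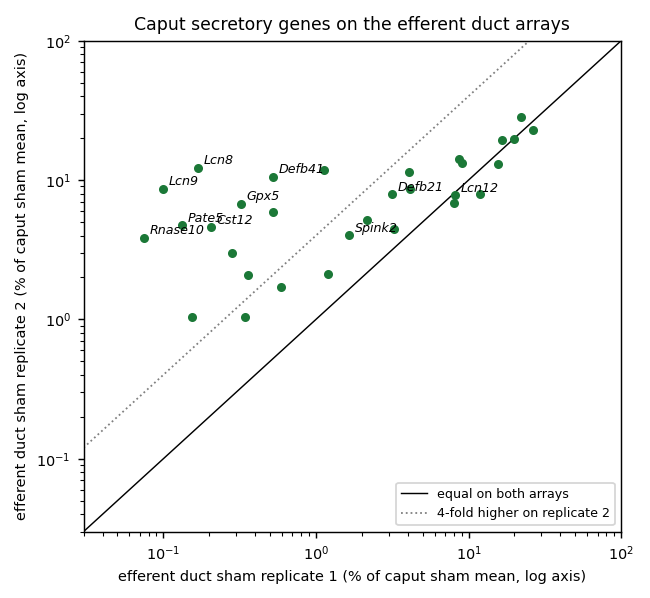
Each point is 1 of 31 secretory genes called higher in the caput, plotted by its intensity on efferent duct sham replicate 1 (horizontal) and replicate 2 (vertical), both as a percentage of the caput sham mean on log axes. Points above the dotted line, 12 genes including Lcn8, Lcn9, Rnase10 and Gpx5, are more than 4-fold higher on replicate 2.

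The caput pair differed in sperm transcripts. Prm2, which encodes a protamine that packs sperm DNA, read 2939 on caput replicate 1 and 546 on replicate 2. Of 34 measured genes of sperm and germ cells, 29 were higher on replicate 1, 18 of them at least 2-fold, and 1 was at least 2-fold higher on replicate 2. Their summed intensity was 11570.5 and 3827 in the caput and 2966 and 2783 in the efferent duct. The list had 8 members called higher in the caput, and 3 without caput replicate 1.

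Across all genes, 4288 of 18193 (23.6%) were called. Of these, 1877 (10.3%) favoured the efferent duct and 2411 (13.3%) favoured the caput. Which side had more depended on the scaling: after quantile normalization the counts were 2094 and 1854, and after centring 2053 and 2185. In all, 10040 (55.2%) had an adjusted p under 0.05, and the 2 arrays of one tissue lay entirely above those of the other in 14199 (78.0%). The tissues thus differed in a large share of what was measured, and the counts of every list that follows are to be read against 10.3% for the efferent duct and 13.3% for the caput. The median difference of all genes, efferent duct minus caput, was -0.30 on the log2 scale as deposited, -0.08 after quantile normalization and -0.20 after centring, so a list's median is read against -0.30. Of 24 measured housekeeping genes, 11 differed less than 2-fold and the range was -3.28 to 2.02. Their median was -0.64, lower than that of all genes, so a list leaning to the caput is to be read against this value too. Differences at least 16-fold, among genes above 16, numbered 274 toward the efferent duct and 387 toward the caput.

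Genes with several probe sets showed how far a single one can be trusted. Of 1006 genes called higher in the efferent duct with more than 1 probe set above 16, all probe sets had the same sign in 364. For the caput this held in 559 of 719. Taking the mean of all probe sets lowered the efferent duct calls from 1877 to 1015. Whether the shorter labelled transcripts of the efferent duct arrays set this was not tested. The number of probe sets that share the sign is given beside the genes for which they disagreed, or here for those without such a note: 1 of 2 for Etohd2, Scd1 and Isl1, 2 of 3 for Hoxc6 and Canx, and 3 of 5 for Sec62.

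Developmental transcription factors separated the segments in both directions. Of 74 measured factors of duct segments, 16 were called higher in the efferent duct against 13 in the caput, with a median difference of 0.34. Hnf4a, a nuclear receptor of absorptive epithelia such as kidney tubule and gut, read 3142 and 3153 in the efferent duct and 43.3 and 45.6 in the caput. The tissues did not overlap, and the difference was 70.8-fold (log2 6.14, 95% interval 5.32 to 6.97, limma adjusted p = 1.13e-06), although only 2 of its 4 probe sets above 16 had that sign. Lhx1, a homeobox factor required for the nephric duct, read 441 and 403 in the efferent duct and 3.74 and 5.58 in the caput. It was below background on both caput arrays and thus at least 36.8-fold higher in the efferent duct (limma adjusted p = 6.12e-06). Both of its probe sets had that sign. Sall1, a zinc finger factor of kidney development, read 1125 and 1100.0 against 17.5 and 21.6, a 57.1-fold difference. Hox genes, which set position along the body axis, were split: Hoxa10 was 15.4-fold higher in the efferent duct (205 and 233 against 12.2 and 16.5), and Hoxb6 was 7.50-fold higher in the caput (167 and 201 against 1355 and 1392). Sox9 was 13.8-fold higher in the efferent duct on its brightest probe set, which 1 of 2 probe sets showed.

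Toward the caput, Foxi1, the forkhead factor that specifies acid-secreting cells, read 369 and 360.5 in the caput and 12.2 and 7.01 in the efferent duct, where it was below background. The difference was at least 33.9-fold (adjusted p = 0.00124). Etv5, an ETS factor of the initial segment downstream of ERK, read 1429 and 1385 in the caput and 75.2 and 109.9 in the efferent duct. All 3 of its probe sets had that sign, and the difference was 15.5-fold (adjusted p = 3.75e-06). Cebpb, a factor of secretory and metabolic genes, was 14.7-fold higher in the caput, and the epithelial factors Tfap2a and Elf3 were 7.15-fold and 6.13-fold higher. Emx2 and Pax8, duct factors of both tissues, were not called: Emx2 read 995 and 1066 against 543 and 605, and Pax8 268 and 262 against 488 and 529.9. For this pair the adjusted p was under 0.05 but the fold was 1.80 toward the efferent duct and 1.92 toward the caput.

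**Figure D2:**
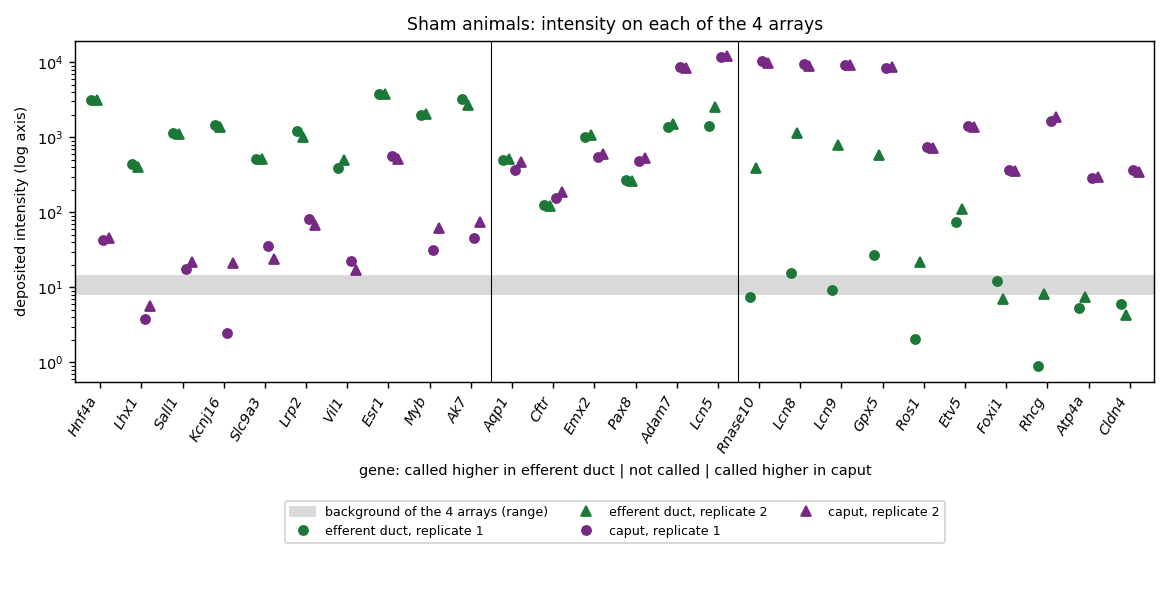
Deposited intensity (log axis) of 26 genes on the 4 sham arrays, with efferent duct in green, caput in purple, circles for replicate 1 and triangles for replicate 2; the grey band spans the background of the 4 arrays, 8.09 to 14.3. The 10 genes on the left are higher on both efferent duct arrays than on either caput array, the 6 in the middle were not called, and for Rnase10, Lcn8, Lcn9 and Gpx5 on the right the 2 efferent duct arrays lie far apart.

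Transport of salt and water, the main task of the efferent duct, was marked by a few large differences rather than by the whole list. Of 45 measured genes of fluid and ion transport, 11 were called higher in the efferent duct against 6 in the caput, and the median was -0.31, about that of all genes. Slc9a3, the apical sodium-hydrogen exchanger NHE3 that drives fluid uptake, read 507 and 513 in the efferent duct and 35.1 and 24.1 in the caput. The groups did not overlap, and the difference was 17.5-fold (log2 4.13, 2.38 to 5.88, adjusted p = 0.00133). Its scaffold Slc9a3r1 (NHERF1) was 7.88-fold higher, with all 3 probe sets of the same sign. Kcnj16, an inward-rectifier potassium channel subunit, read 1441 and 1355 against 2.48 and 21, and only the second caput array was above background. Fxyd2, a regulatory subunit of the sodium pump, read 472 and 561 against 21.4 and 16.5, 27.3-fold, and all 3 probe sets differed at least 4-fold. The pump's beta subunit Atp1b1 was 6.43-fold higher and the chloride exchanger Slc26a3 8.90-fold higher, while 3 of 5 probe sets of Atp1b1 shared that sign.

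The caput side of the same list held acid transport. Atp4a, the catalytic subunit of the proton-potassium pump best known from stomach, read 291 and 298 in the caput and 5.24 and 7.35 in the efferent duct. It was below background in the efferent duct and at least 27.3-fold higher in the caput (adjusted p = 1.14e-05). The carbonic anhydrase Car12 was 6.14-fold higher in the caput. Cftr, the chloride channel mutated in cystic fibrosis, was not called, with 127 and 122 against 155 and 187 (log2 -0.45, interval -1.29 to 0.39).

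Among 12 aquaporins, 2 were called in each direction. Aqp1, the water channel usually taken as typical of the efferent duct, read 497 and 513 in the efferent duct and 370.0 and 464 in the caput. The groups did not overlap but the difference was 1.22-fold, with an interval of -0.20 to 0.77 on the log2 scale and an adjusted p of 0.289. Aqp1 is also made by endothelium, whose 13 measured markers had 0 called in either direction, with 2 toward the efferent duct and 5 toward the caput at an adjusted p under 0.05. Aqp9, a channel for water and small solutes of the epididymal epithelium, read 185 and 129 against 356 and 389, 2.41-fold higher in the caput and below the 4-fold limit. Aqp4 read 372 and 246 against 14.3 and 12.2, a 22.9-fold difference that was -0.03 on the log2 scale when all probe sets were averaged. Its second caput value was just below background, so the size is uncertain. The caput calls of this list, Aqp8 and Aqp12, fell from 2 to 0 without caput replicate 1.

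Of 28 measured genes of endocytosis and the brush border, which take up protein from the lumen, 4 (background 10.3%) were called higher in the efferent duct against 5 (background 13.3%) in the caput, shares near those of all genes. Lrp2 (megalin), the large endocytic receptor of the brush border, read 1205 and 1024 in the efferent duct and 81.4 and 67.0 in the caput, with no overlap and a 15.0-fold difference (adjusted p = 1.06e-05) that 2 of 3 probe sets shared. Its partner Cubn (cubilin) was close to background on the probe set used, 17.5 and 6.61 against 0.556 and 3.87. On that probe set it lost its call without efferent duct replicate 1 or caput replicate 1. The other Cubn probe set was above 16 in a sham group mean and at least 4-fold higher in the efferent duct. Vil1 (villin), which bundles the actin of microvilli, read 394 and 501 against 22.4 and 16.9, 22.8-fold. Ush1c (harmonin), which ties microvilli together at their tips, was 10.8-fold higher in the efferent duct. Ezrin (Ezr), which links the membrane to actin, went the other way with 363 and 380.2 against 2924 and 2858, 7.78-fold higher in the caput. Ap1m2, an epithelial clathrin adaptor subunit, was 15.5-fold higher in the caput.

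Steroid and retinoid genes gave 4 calls in each direction among 44 measured, below the shares of all genes (10.3% and 13.3%). Esr1, estrogen receptor alpha, read 3818 and 3785 in the efferent duct and 567 and 511 in the caput. The groups did not overlap, and the difference was 7.06-fold on the brightest probe set (log2 2.82, 2.37 to 3.27, limma adjusted p = 2.77e-06). Both probe sets above 16 differed at least 4-fold. Crabp1, which binds retinoic acid in the cytoplasm, was 46.0-fold higher in the efferent duct (708 and 843 against 12.5 and 22.5). Sult1e1, the sulfotransferase that inactivates estrogens, read 382 and 869 against 54.3 and 61.3, and Sult1d1, another sulfotransferase, was below background in the caput and at least 65.8-fold higher in the efferent duct. Esr2, estrogen receptor beta, was below background in the efferent duct and 30.2 and 33.5 in the caput, at least 2.95-fold. Pax2, Crisp1 and Cst8 are not analysed here.

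Motile cilia set the tissues apart across most of a list. Of 54 measured genes, 30 (against a background of 10.3%) were called higher in the efferent duct against 0 in the caput, 46 were higher in the efferent duct in their estimate, and the median was 2.36 against -0.30 for all genes. At an adjusted p under 0.05 without the fold limit, 42 were higher in the efferent duct against 2 in the caput. Ak7, an adenylate kinase of the axoneme, read 3242 and 2705 in the efferent duct and 46.0 and 73.4 in the caput, 51.0-fold. Myb, a transcription factor that switches on the multiciliated cell programme, read 1994 and 2069 against 31.9 and 61.2. The difference was 45.9-fold on the brightest probe set (limma adjusted p = 8.30e-07) and at least 4-fold on all 3. Rsph4a, a radial spoke head protein, read 780.3 and 811 against 20.3 and 31.0, 31.7-fold. Dnah6, a dynein heavy chain, read 513 and 490 against 28.7 and 5.60, 39.6-fold. It was below background on caput replicate 2, so this size is uncertain. Rfx3, a factor that drives ciliary genes, was 16.4-fold higher.

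Other regulators of the same programme moved less. Foxj1, the forkhead factor of motile cilia, read 82.4 and 96.7 in the efferent duct and 43.0 and 42.1 in the caput, 2.10-fold and not called. Ccno and Deup1, which act in the amplification of centrioles, had estimates toward the caput (log2 -0.86 and -0.83) at adjusted p of 0.0582 and 0.0579. Dnaic2, an outer dynein arm chain, had the lowest estimate of the list, -2.31, from 15.6 and 0.755 against 17.2 and 16.7. Ift88, which builds primary as well as motile cilia, read 149 and 148 against 106 and 118. Several of these genes also serve the sperm tail. Of 34 measured sperm and germ cell genes, 8 were called in the caput (background 13.3%) and 2 in the efferent duct (background 10.3%). The sum of that list was 11570.5 on caput replicate 1 and 3827 on replicate 2, against 2966 and 2783 in the efferent duct. The part of sperm in the cilia values was not tested.

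**Figure D3:**
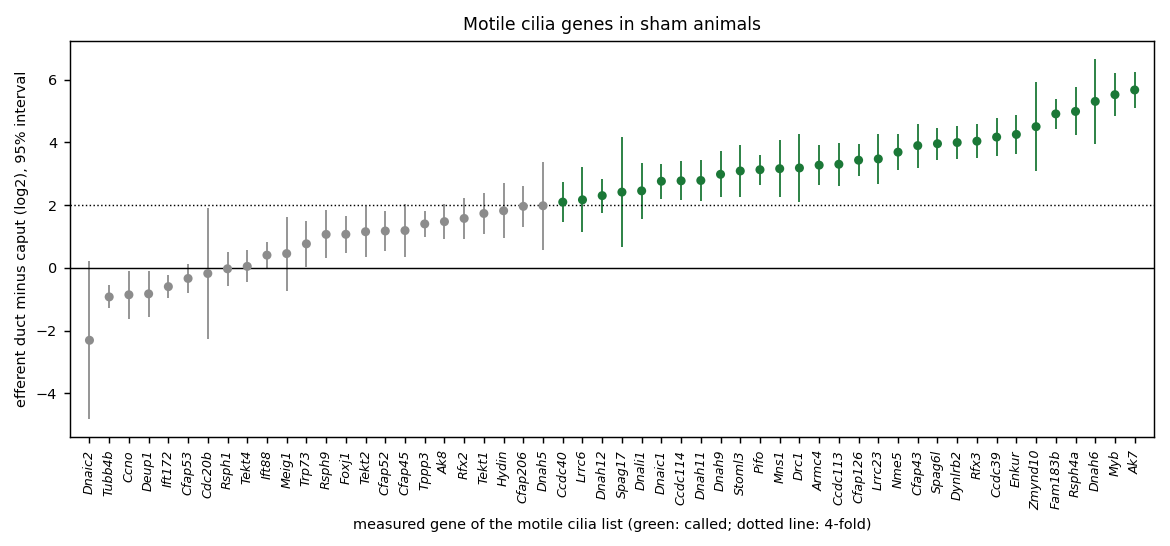
Difference between efferent duct and caput (log2) with its 95% interval for each of the 54 measured motile cilia genes, sorted by the estimate. Green marks the 30 called genes, grey the 24 not called, and the dotted line is the 4-fold limit; estimates run from -2.31 for Dnaic2 to 5.67 for Ak7.

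Since these genes moved together, their promoters were read from RefSeq (GRCm38.p6, 250 bases before to 50 after each start). RFX factors, of which Rfx3 is one, bind the X-box. A loose form of its imperfect palindrome, searched on both strands, was in a promoter of 3 of the 26 called cilia genes with an entry (11.5%), of 7 of the 46 measured ones with an entry (15.2%) and of 274 of 14452 genes tested (1.90%). Over all 32851 promoters of the table the share was 1.29%. The shorter string GTTGCC, which the longer form can contain, was in 11 of 26 (42.3%), 22 of 46 (47.8%) and 14.7% of all genes tested. The forkhead string GTAAACA was in 4 of 26 (15.4%) and 3.40% of all. X-box spellings with more letters fixed than the loose form were rare. The strictest was in 0 of 26 called and 0 of 46 measured cilia genes, and in 10 of 14452 genes tested. The other stricter spellings were in at most 1 of 26 and at most 2 of 46. A still looser spelling was in 5 of 26, 11 of 46 and 442 of 14452. The 3 promoters of called genes with the loose form are shown to let its place be seen, with the match in capitals. In Zmynd10 and Spag6l the string itself is on the opposite strand.

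Pifo, chr3:106001448-106001747, minus strand, a protein of ciliary disassembly, 530 and 553 in the efferent duct and 58.0 and 66.0 in the caput:
Pifo: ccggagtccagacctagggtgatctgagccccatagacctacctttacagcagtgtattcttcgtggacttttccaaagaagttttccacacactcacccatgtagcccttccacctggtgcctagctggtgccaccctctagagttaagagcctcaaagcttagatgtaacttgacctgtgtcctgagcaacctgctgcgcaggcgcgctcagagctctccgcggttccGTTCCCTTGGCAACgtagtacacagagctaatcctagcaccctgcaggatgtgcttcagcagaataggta
Zmynd10, chr9:107547054-107547353, plus strand, a dynein arm assembly factor, 101 and 129 against 10.5 and 2.41:
Zmynd10: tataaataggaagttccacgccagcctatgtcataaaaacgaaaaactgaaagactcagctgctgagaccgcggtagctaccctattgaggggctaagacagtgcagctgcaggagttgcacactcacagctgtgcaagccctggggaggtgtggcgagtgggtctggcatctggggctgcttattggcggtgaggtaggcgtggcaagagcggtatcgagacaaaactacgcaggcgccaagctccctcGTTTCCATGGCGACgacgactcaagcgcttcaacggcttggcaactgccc
Spag6l, chr16:16829314-16829613, minus strand, a central pair protein of the axoneme, 467 and 429 against 29.8 and 27.9:
Spag6l: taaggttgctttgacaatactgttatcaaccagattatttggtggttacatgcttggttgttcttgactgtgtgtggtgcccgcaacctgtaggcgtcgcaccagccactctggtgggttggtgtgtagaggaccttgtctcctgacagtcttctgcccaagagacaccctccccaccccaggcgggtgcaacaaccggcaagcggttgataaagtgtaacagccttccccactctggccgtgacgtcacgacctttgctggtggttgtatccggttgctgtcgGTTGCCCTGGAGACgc

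The match begins 20 bases before the annotated start in Pifo, at the start itself in Zmynd10 and 34 bases after it in Spag6l. The ETS string AGGAAG, at the core of sites bound by Etv5 and its relatives, was in 37.5% of 304 promoters of genes at least 16-fold higher in the caput and 37.6% of all genes tested. In all, 19 strings were searched; the others were further spellings of the X-box, steroid response elements, the palindrome of the HNF1 site, and CCGGAAGT, TAATTA, CAAAGTCCA, TTGCGCAA and CACGTG. These strings were chosen with the values known, and a match describes the letters only.

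Secreted proteins marked the caput, with very wide intervals for several of them. The spread behind the intervals is pooled over all 8 groups of arrays. Of 15 measured markers of caput principal cells, 8 were called higher in the caput (against a background of 13.3%) and 0 in the efferent duct, with a median of -3.67. Rnase10 read 10312 and 9692 in the caput and 7.52 and 386 in the efferent duct. Both efferent duct arrays were lower than either caput array, and the difference was -7.54 on the log2 scale (-11.27 to -3.80, adjusted p = 0.00342), -4.70 without efferent duct replicate 1. On replicate 1 alone it was below background, so no size is given without replicate 2. Lcn9 read 9128 and 9289 against 9.21 and 797, a difference of -6.75, or -3.53 without replicate 1, and it too was below background on replicate 1. Lcn8 read 9349.5 and 8970.3 against 15.5 and 1126, a difference of -6.11, or -3.02 and -9.20 without replicates 1 and 2. Each of these 3 genes kept its call without either array. Ros1, the receptor tyrosine kinase of the initial segment, read 735 and 726 in the caput and 2.07 and 21.9 in the efferent duct (-6.76, limma adjusted p = 0.000535). It was below background on efferent duct replicate 1, so this size is uncertain.

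Gpx5, at 8388 and 8586 in the caput, and the cystatins Cst11 and Cst12, inhibitors of cysteine proteases, lost the call without efferent duct replicate 1. Gpx5 and Cst11 also lost it without either caput array, with almost the same estimates (-6.10 and -6.06 for Gpx5, -5.78 and -5.86 for Cst11). Without efferent duct replicate 1, Gpx5 was -3.88, against -6.08 with both arrays and -8.28 without replicate 2. In the same order, Cst11 was -4.07, -5.82 and -7.58, and Cst12 -4.45, -6.69 and -8.93. Pate5, a small secreted sperm-binding protein, was -4.40 without replicate 1 against -6.98 with both arrays. Adam28, a surface metalloprotease, read 12.0 and 36.5 in the efferent duct and 3431 and 3557 in the caput and kept its call without any 1 array. Lcn12, a further lipocalin, read 153 and 147 against 2003 and 1773, 12.6-fold, and kept it too. Over the 32 measured secreted and sperm maturation genes, 11 were called higher in the caput and 1, Etohd2, in the efferent duct.

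The other 7 principal cell markers were not called. Adam7, a membrane protein handed from principal cells to sperm, read 1381 and 1484 in the efferent duct and 8643 and 8372 in the caput. Lcn5, a retinoid-binding lipocalin, read 1393 and 2536 against 11767 and 12020.5. Although the tissues did not overlap in either gene, the limma adjusted p was 0.0602 for Adam7 and 0.114 for Lcn5. The spread behind these p-values includes the other groups. After TP the efferent duct arrays read 1007 and 105 for Adam7 and 251 and 65.4 for Lcn5. Crisp4, a cysteine-rich secretory protein that coats sperm, read 144 and 207 in the efferent duct and 2007 and 2415 in the caput (limma adjusted p = 0.0734). Its efferent duct arrays after TP read 17.8 and 0.454. Spink8 read 4137 and 2958 against 7701 and 7955. Ces5a, a carboxylesterase of the epididymal lumen, read 3964 and 3204 against 4433 and 4945. Spink10, a Kazal-type protease inhibitor, overlapped between the tissues (2535 and 2052 against 2478 and 2578), and Cd52, a small glycoprotein transferred to sperm and also made by lymphocytes, was 1.99-fold higher in the efferent duct (4987 and 4534 against 2274 and 2519). In a bulk sample, fewer cells of a type and less RNA per cell cannot be told apart.

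Beta-defensins, small antimicrobial peptides that coat epididymal sperm, gave 5 caput calls and 2 efferent duct calls among 20 measured. Defb35 read 6237 and 3691 in the caput and 7.69 and 51.9 in the efferent duct (-7.91, limma adjusted p = 0.00104). It was below background on efferent duct replicate 1, so this size is uncertain. Defb21 read 3757 and 3664 in the caput against 117 and 294. The other 13 were not called, and 6 of the 20 had estimates toward the efferent duct. Of the 2 called there, Defb11 read 1576 and 1397 in the efferent duct and 75.9 and 149 in the caput. Defb9 read 444 and 248 against 8.95 and 19.8. Their adjusted p were 0.0443 and 0.0157. These counts are small and rest on single arrays: the caput calls were 2 without efferent duct replicate 1, 2 without caput replicate 1 and 3 without caput replicate 2. The efferent duct calls were 0 without efferent duct replicate 1 or caput replicate 1, and 1 without either other array.

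Protease inhibitors had 9 caput calls and 3 efferent duct calls among 45, and the caput calls were 5 without efferent duct replicate 1 or caput replicate 2. Spink2, an acrosin inhibitor, read 3859.9 and 3755 in the caput and 62.7 and 153 in the efferent duct, 38.9-fold. Serpinf2, the plasmin inhibitor, was below background in the efferent duct and at least 42.8-fold higher in the caput, a call it lost without efferent duct replicate 1. Tfpi2, a Kunitz-type inhibitor, was below background in the caput and at least 24.4-fold higher in the efferent duct (292 and 267). The efferent duct calls of this list were 1 without efferent duct replicate 2. In the redox list, 8 of 43 were called higher in the caput, among them Gpx6, at least 38.8-fold, and 6 in the efferent duct, among them the glutathione reductase Gsr, 15.4-fold on 1 of 2 probe sets.

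Markers of acid-secreting cells leaned toward the caput. Of 12 measured markers of clear and narrow cells, 6 were called higher in the caput and 0 in the efferent duct. All 12 estimates were below 0, with a median of -1.91. The highest, -0.13, was above the -0.30 of all genes, and 2 of the 12 were below background in both tissues. Rhcg, an ammonia channel, read 1642 and 1846 in the caput and 0.892 and 8.09 in the efferent duct, the first below and the second at background, so its size is not given (adjusted p = 0.000243). Atp6v0d2, a subunit of the proton pump of these cells, read 558 and 629.9 against 49.8 and 32.4, 14.7-fold. Both of its probe sets differed at least 4-fold. The summed intensity of the list was 3127 and 3319 in the caput and 230.4 and 199 in the efferent duct. Bsnd, a chloride channel subunit at 30.4 and 16.7 in the caput, lost its call without caput replicate 1 or efferent duct replicate 2.

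Basal cells, which line the base of the caput epithelium, gave 4 caput calls among 12. The keratins Krt5 (207 and 199 against 24.7 and 25.7), Krt14 and Krt15 and the collagen Col17a1 were the 4, and the master factor Trp63 was not called (2.64-fold, adjusted p = 0.0677). Dst was called in the other direction on 1 of its 3 probe sets.

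Of 40 measured junction proteins, 7 were called higher in the caput (background 13.3%) and 4 in the efferent duct (background 10.3%), shares near those of all genes. Cldn4, a claudin of tight epithelia, read 369 and 345 in the caput and was below background in the efferent duct (5.97 and 4.30), at least 33.1-fold. Cldn3 read 2178 and 2065 against 98.4 and 73.2, 25.0-fold on the brightest probe set (limma adjusted p = 7.01e-07). All 4 of its probe sets differed at least 4-fold. Cldn9 and Cldn6, claudins of other epithelia, were 11.5-fold and 9.32-fold higher in the efferent duct. Cldn6 was below background on caput replicate 1 (3.88), so its size is uncertain.

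The protein folding machinery of the endoplasmic reticulum, on which secretion depends, was higher in the caput for many members. Of 39 measured, 13 were called higher in the caput and 1, Sec62, in the efferent duct, with a median of -1.41. Pdia6, a disulfide isomerase, read 3033 and 2767 in the caput and 130.5 and 134 in the efferent duct, 21.9-fold (adjusted p = 1.47e-07). Xbp1, the factor that enlarges the secretory pathway, was 11.2-fold higher on its brightest probe set and in sign on 3 of 4. Hspa5 (BiP), the main lumenal chaperone, was 2.26-fold higher and not called, and Canx (calnexin) read 3437 and 2833 against 2917 and 3032. Cholesterol synthesis had 5 caput calls among 21, led by Fdps (1439.7 and 1215 against 34.4 and 20.7), and Insig1, which holds that pathway back, was 9.03-fold higher in the efferent duct. The housekeeping genes had 6 caput calls and 1 efferent duct call among 24.

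**Figure D4:**
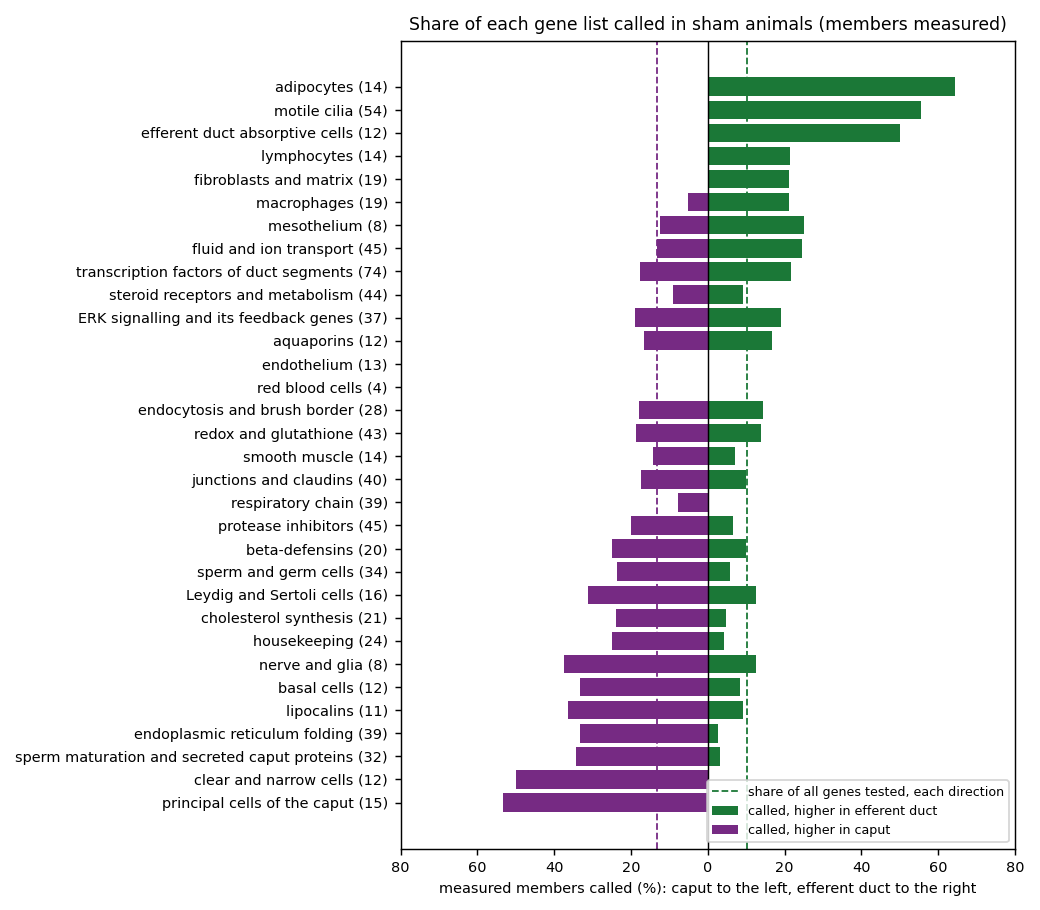
Share of the measured members of each of 32 lists that were called higher in the efferent duct (green, right) or in the caput (purple, left), with the number measured in brackets; dashed lines give the share among all genes, 10.3% and 13.3%. Motile cilia, adipocyte and absorptive cell markers stand to the right, principal, clear and narrow cell markers to the left.

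Genes of the ERK pathway gave 7 calls each way among 37 measured, and 4 toward the efferent duct without caput replicate 1. The caput calls held Ros1, Etv5, Etv4 and the feedback inhibitors Spry1 (5.56-fold) and Dusp4 (4.62-fold), which ERK itself induces. Dusp6, another feedback phosphatase, differed 1.47-fold. The efferent duct calls held the growth factor receptors Fgfr2 (1967 and 1857 against 256 and 257), Egfr and Met, at 7.45-fold, 4.79-fold and 5.29-fold. Of their probe sets above 16, 2 of 3, 2 of 5 and 1 of 2 had that sign.

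Among markers of other cells, adipocyte genes departed most from the shares of all genes, and several lists had few calls or calls both ways. Of 14 measured adipocyte genes, 9 were called higher in the efferent duct against 0 in the caput, with a median of 2.58, and their summed intensity was 19638 and 18021 in the efferent duct against 3486 and 2874 in the caput. Adipoq, the hormone adiponectin, read 567 and 611 against 108 and 88.0, and Fabp4, the fatty acid binding protein of fat cells, 5659.9 and 4632 against 642 and 405. Fat lies beside the efferent ducts. The part of fat cells in the efferent duct values was not tested. Fibroblast genes had 4 efferent duct calls among 19, led by Col1a1 (22.9-fold), with sums of 19667 and 25516 against 11517 and 11206. Smooth muscle had 1 efferent duct call and 2 caput calls among 14, with Actg2 14.1-fold higher in the caput. Lymphocyte genes had 3 efferent duct calls among 14, mesothelium 2 and 1 among 8, nerve and glia 1 and 3 among 8, Leydig and Sertoli cells 2 and 5 among 16, red blood cells 0 of 4 and the respiratory chain 0 and 3 among 39. Macrophage markers disagreed: of 19 measured, 4 were called higher in the efferent duct against 1 in the caput. C1qb was 9.31-fold higher in the efferent duct on its brightest probe set, a sign that 2 of its 3 shared, and C1qa 10.1-fold higher in the caput, although both encode chains of the same complement protein C1q, and the third chain C1qc differed 1.89-fold.

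The largest efferent duct differences among genes above background on all 4 arrays included several outside any list. Fndc7, a fibronectin-domain protein, read 2369 and 2139.6 in the efferent duct and 14.6 and 17.3 in the caput, and all 4 of its probe sets showed at least a 4-fold difference (142-fold on the brightest, adjusted p = 2.37e-07). Pdk4, the kinase that shuts off pyruvate dehydrogenase, read 1872 and 1801 against 21.4 and 20.1, 88.6-fold. Mmd2, a membrane protein, was 76.8-fold, Fam47e 55.6-fold and Coq8a, a coenzyme Q synthesis kinase, 53.7-fold higher. A further 4, Seh1l, Hdgf, Thoc1 and Ccdc30, were 61.5-fold to 91.3-fold higher on their brightest probe set, but 3 of 6, 2 of 3, 3 of 4 and 5 of 7 of their probe sets shared the sign. Seh1l and Thoc1 encode parts of the nuclear pore and of the mRNA export complex, present in all cells. E430024I08Rik was 76.9-fold higher on its brightest probe set and at least 4-fold higher on both.

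Among genes below background in the caput, Ackr4, a scavenging chemokine receptor, was the brightest in the efferent duct (1625 and 1311) and at least 127-fold higher. Maged2 was at least 119-fold, Wdr31 at least 79.1-fold, Mgam, a brush border enzyme that splits starch sugars, at least 46.3-fold, Acsf2 at least 37.1-fold, Haao at least 29.8-fold and the glutamate receptor subunit Gria1 at least 26.0-fold higher. Of these, 1 of 2 probe sets showed the sign for Maged2 and Wdr31 and 2 of 3 for Ackr4. Haao makes quinolinic acid in the breakdown of tryptophan and is known from kidney and liver.

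In the caput the largest differences on genes above background everywhere were those of Lap3, an aminopeptidase, at 4783 and 4607 against 23.2 and 25.5 (193-fold, adjusted p = 2.72e-07), and Mbnl3, a splicing factor, at 4272 and 4172 against 19.8 and 40.4 on all 3 probe sets. Teddm2, an epididymal membrane protein, was 116-fold and Cryba4, a crystallin otherwise known from the lens, 103-fold higher. St8sia6, a sialyltransferase, was 77.2-fold higher, and all 3 of its probe sets differed at least 4-fold. P4ha2, a collagen prolyl hydroxylase, was 69.7-fold, Gamt, which completes creatine, 66.1-fold and Lrcol1 62.1-fold higher. Below background in the efferent duct were Slco4c1, an organic anion transporter (930.2 and 896, at least 84.8-fold), Pmel, Col6a4, Lingo1, Tcl1b3, Hgfac, Iapp and 9230102K24Rik, at least 36.9-fold to 70.6-fold higher in the caput. All 4 probe sets of Iapp, the islet peptide amylin, differed at least 4-fold (631 and 293 against 13.9 and 6.01 on the brightest).

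Near the fold limit the calls were a matter of small steps. Scd1, a fatty acid desaturase, was called at 4.0016-fold, Mgst1, a membrane glutathione transferase, at 4.0018-fold toward the caput, and Hk1, a hexokinase, was not called at 3.9999-fold.

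The same contrast in castrated mice used arrays that the sham contrast did not, though labelled with the same kits. There, 1841 genes (10.1%) were called toward the efferent duct and 2508 (13.8%) toward the caput, a balance that centring turned to 2384 and 1824. Of the genes called in sham mice, 1260 of 1877 in the efferent duct direction (67.1%) and 1495 of 2411 in the caput direction (62.0%) had the same call in castrated mice, and 10 and 8 had the opposite one. Taken from the castrated side, the shared genes were 68.4% and 59.6% of the calls. After TP, 1497 (8.23%) and 1183 (6.50%) genes were called, or 1108 and 1678 after centring, and after E2 1319 (7.25%) and 1148 (6.31%). On those hormone arrays of the efferent duct the brightest signals were lower and the actin 3' over 5' ratio was smaller than on its vehicle arrays. Sizes were therefore not compared with them. A call there still needs a 4-fold difference, so counts of calls on these arrays depend on size too. Whether a call absent after TP or E2 reflects the arrays or the tissues was not tested. The same call in all 4 treatments was made for 564 genes in the efferent duct direction and 334 in the caput direction.

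Motile cilia held across all 4 treatments for 22 of the 30 called genes, among them Myb, Ak7, Rfx3, Rsph4a, Spag6l and Zmynd10. Lhx1, Hnf4a, Sall1, Cebpa and Isl1 were the transcription factors called higher in the efferent duct in all 4, though Isl1 read only 33.8 and 23.8 in the sham efferent duct and the probe set brightest over the sham arrays gave -0.30. Foxi1, Tfap2a and Hoxc6 were those of the caput. Foxi1, Rhcg and Bsnd of the acid-secreting cells, Cldn3, Cldn4 and Cldn14 of the junctions and Krt5 and Krt14 of the basal cells kept their caput call in all 4. Of the 8 called principal cell markers, Defb21 and Ros1 did so. Kcnj16, Fxyd2 and Slc12a3 did so among the transporters of the efferent duct, the last near background (8.82 and 14.2 in the sham efferent duct), while Slc9a3 was called in sham mice (log2 4.13) and was 1.44 in castrated mice.

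**Figure D5:**
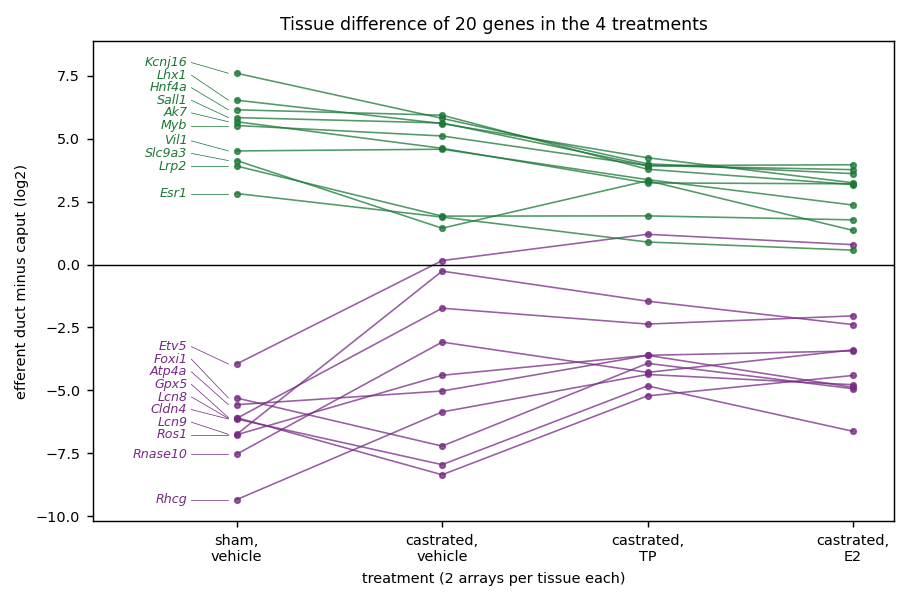
Difference between efferent duct and caput (log2) of 20 genes in sham, castrated, TP-treated and E2-treated mice, each point from 2 arrays per tissue; green genes were called higher in the efferent duct in sham mice and purple ones in the caput. The 10 green genes stay above 0 in all 4 treatments, and 9 of the 10 purple genes stay below 0 while Etv5 lies above 0 in the castrated, TP and E2 groups. Sizes on the TP and E2 arrays are not comparable with the others.

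Whether the tissue difference itself differed between sham and castrated mice was tested with an interaction term. Over all genes 590 (3.24%) passed at an adjusted p under 0.05, a count that was 4 with the replicate block, 50 with only the 8 vehicle arrays, 300 with averaged probe sets and 1498 with values under 16 set to 16, and of the 24 measured genes chosen for this test 1 did. That gene was Etv5, with a caput excess of 15.5-fold in sham mice and values of 75.5 and 104 (efferent duct) against 90.3 and 70.0 (caput) in castrated mice. The change of the difference was -4.11 (-5.05 to -3.16, adjusted p = 0.00322), and the adjusted p was 0.071 with the replicate block. The efferent duct values were alike in both treatments, while the caput values were 1429 and 1385 in sham mice. For Lcn8, Lcn9 and Rnase10 the estimates were -4.38, -6.48 and -4.45, with adjusted p of 0.328, 0.191 and 0.335, and for Lcn5 it was 5.21 (adjusted p = 0.167). Esr1 (0.93, adjusted p = 0.116) and Slc9a3 (2.69, 0.224) did not pass, and their intervals were 0.30 to 1.57 and 0.22 to 5.16.

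Genes with opposite calls in sham and castrated mice were few and were looked at after their values were seen. Ltf (lactoferrin), an iron-binding secretory protein, read 509 and 429 in the sham efferent duct, 16.96 and 1.48 in the sham caput, 4.36 and 2.85 in the castrated efferent duct and 60.1 and 80.2 in the castrated caput. Defb11 read 16.2 and 0.499 in the castrated efferent duct and 119 and 131 in the castrated caput, against its excess in the sham efferent duct. Odam, a secreted epithelial protein, read 507 and 293 against 59.99 and 58.7 in sham mice and 16.2 and 17.2 against 71.3 and 80.4 in castrated mice. Cwh43 read 735 and 554 in the sham efferent duct and was below background there in castrated mice (0.617 and 0.866). Since these genes were chosen for their opposite calls, no test of the change is given. Ces5a, which was not called in sham mice, was -4.66 in castrated mice (170.3 and 52.1 in the efferent duct against 2405 and 2370.2 in the caput).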

How the data were processed

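Expression was measured on 16 one-colour Affymetrix arrays with 45101 probe sets, 2 arrays for each of 4 treatments in 2 tissues. The deposited intensity values are on a linear scale; the authors' processing is named as RMA, with no version, per the submitters' processing notes, although RMA usually yields log2 values. Each array's mean, trimmed by 2% at each end, is 125. The medians run from 22.8 to 38.2 over the 16 arrays, so the distributions were not made equal, as quantile normalization within RMA would do. The algorithm behind the values is therefore uncertain. Of the probe sets, 34958 had 1 gene symbol in the platform annotation, 932 had several and 9211 none, and each of 18193 genes was represented by its brightest probe set.

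The log2 of the intensities was fitted with limma 3.58.1 in R 4.3.3, with 8 groups and no covariate, and p-values were adjusted by Benjamini-Hochberg over all genes. No pseudocount was added. The contrast was efferent duct minus caput in sham mice, with the same contrast in the other treatments and its interaction with castration. The fit was also run on simulated data in which few genes differed between the tissues. Many differ here, so that run does not show how reliable the present calls are. Python 3.11.15 with pandas 2.3.3 made the tables, and matplotlib 3.10.9 the figures.

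Genes named are the 12 largest differences each way above background on all 4 arrays, the 10 brightest each way that were below background in the other tissue, up to 6 called members of each of 32 lists and 24 measured fixed genes; others are named where a list's uncalled members or a comparison needed them, after their values were seen. Members and lists were chosen with earlier results of these data known. The main fit did not pair the tissues by replicate number. The alternatives were other normalizations, filters, probe set choices, samples and variance priors, and leaving out each sham array.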

Additional observations from a re-analysis of the deposited data

Results flagged for a closer look

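Etv5 was singled out because its tissue difference itself differed between sham and castrated mice. The difference, efferent duct minus caput, was -3.95 on the log2 scale in sham mice and 0.16 in castrated mice, so that the change was -4.11 (limma interaction term, adjusted p = 0.00322), with an adjusted p of 0.071 under the replicate block. Both sham caput arrays (1429 and 1385) were above both castrated caput arrays (90.3 and 70.0).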

How the results depend on the processing

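Counts of calls depended on the scaling, the choice of probe set and low values. Which tissue had more calls turned with quantile normalization in sham (2094 efferent duct, 1854 caput) and castrated mice (2064 and 1867), and with centring in castrated (2384 and 1824), TP (1108 and 1678) and E2 mice (1127 and 1359). Averaging a gene's probe sets, 1015 genes were called higher in the sham efferent duct and 1090 in the castrated one. With values under 16 set to 16, the caput calls were 1520 in sham mice, 412 after TP and 536 after E2, and with only genes above 16 they were 753 after TP. Leaving out 1 sham array gave 8508 to 8924 genes at an adjusted p under 0.05, 1764 to 1863 efferent duct calls and 2053 to 2347 caput calls. The interaction with castration passed for 1498 genes with values under 16 set to 16, 300 when probe sets were averaged, 50 with only the 8 vehicle arrays, 1100 with an intensity trend in the variance prior and 4 with the replicate block. The causes were not tested.

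Replicate numbers are shared between the tissues, but same-numbered arrays did not deviate together (correlations of 0.031 in sham, -0.028 in castrated, 0.057 in TP and 0.048 in E2 mice over 10846 genes). With the replicate block, 9424 genes had an adjusted p under 0.05 in sham mice, with 1860 efferent duct and 2309 caput calls, and the interaction of Etv5 had an adjusted p of 0.071.

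Signs that reversed were few. When probe sets were averaged, Aqp4 was -0.029, Dst -0.13 and Myocd -0.23, and Isl1 was -0.30 on the probe set brightest over the sham arrays. Prm1, a protamine, ranged from -1.45 to 0.42 when 1 sham array was left out, with 0.42 without caput replicate 1. For the interaction, Cftr was -0.19 after quantile normalization, -0.048 after centring and -1.66 when averaged, Lhx1 -0.083 with values under 16 set to 16, Cst11 0.14 after quantile normalization and Prm1 -0.74 when averaged. Signal over background limits every gene near 16, and 2 arrays a group limit all of them.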
